A study of Mus musculus with 18 samples.

Results

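Il7r, Upk1b, Csmd3, Rgs1, Btg2, Gprasp2, Neurl3 and Kcnrg are 8 transcripts that were chosen because their levels rise strongly between postnatal day 7 (P7) and adulthood in microglia, the resident macrophages of the brain. They are 8 of the 22180 genes measured. Each is represented by the brightest of the probe sets that the array annotation gives to its symbol alone, judged by the mean over all 18 arrays. The members were chosen by the difference between their adult and P7 levels on these arrays, so the size of the rise is described here without a test. Tests were kept to the difference between brain regions at each age and to its change from P3 to P7. Of these, the comparison at P3 alone rests on arrays that took no part in the choice.

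Microglia came from cortex and from corpus callosum, the white matter tract that joins the hemispheres, of C57Bl/6 mice kept under specific-pathogen-free conditions and given no treatment. They were taken at postnatal day 3 (P3), at P7 and in adult mice, whose age in days or weeks the labels leave out. Cells were separated on Percoll and sorted for CD45 and CD11b and against Gr1, and their amplified RNA was hybridised to Affymetrix arrays, 3 arrays in each of the 6 groups. The labels do not tie an array to an animal or a pool, nor name a sex, so all p-values measure the spread between these samples, which may be technical.

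The deposited values are expression levels on a log scale, taken here as log2, and all levels and differences below are in log2 units, so that a difference of 1 is a doubling. The array medians lay between 5.58 and 5.74. Transcripts that define microglia were abundant on every array, with means over the 13 measured microglial markers from 10.4 to 11.4. The corresponding means over 13 markers of T and innate lymphoid cells lay between 5.11 and 5.39, below every array median. The T cell receptor components Cd3e (4.56 to 5.01), Cd3d (4.57 to 4.79) and Cd3g (3.46 to 3.89) were below the medians on all arrays as well. Both adult replicate 1 arrays stood slightly apart, with mean correlations to the rest of 0.956 (cortex) and 0.953 (corpus callosum), where no other array was below 0.961. P3 arrays carry another label prefix than P7 and adult arrays, so that age and array set cannot be told apart between P3 and P7.

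The members belong to different pathways. Il7r encodes the alpha chain of the receptor for interleukin 7, which pairs with the common gamma chain, and it also forms the receptor for thymic stromal lymphopoietin together with Crlf2; it is best known from lymphocytes. Upk1b is a tetraspanin known from the plaques of the urothelium, and Csmd3 is a very large membrane protein built of CUB and sushi domains that is known from neurons. Rgs1 speeds up GTP hydrolysis by G protein alpha subunits and so shortens signalling from chemokine receptors, and Gprasp2 binds G protein-coupled receptors and takes part in sorting them to lysosomes. Btg2 is an antiproliferative protein that recruits the CCR4-NOT deadenylase to messenger RNAs and that responds to p53 and to growth factors. Neurl3 is a ubiquitin ligase of the Neuralized family, and Kcnrg is a soluble protein that hinders the assembly of Kv1 potassium channels.

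Start-site sequences were found for 5 members in the RefSeq promoter table of mouse build GRCm38.p6, which holds 250 bases before to 50 bases after a gene's start. They were searched on both strands for 8 short motifs, and the 3 with a match are shown because their upstream letters can be read beside the levels that follow. Capitals mark the matches.
Btg2, chr1:134079106-134079405, minus strand: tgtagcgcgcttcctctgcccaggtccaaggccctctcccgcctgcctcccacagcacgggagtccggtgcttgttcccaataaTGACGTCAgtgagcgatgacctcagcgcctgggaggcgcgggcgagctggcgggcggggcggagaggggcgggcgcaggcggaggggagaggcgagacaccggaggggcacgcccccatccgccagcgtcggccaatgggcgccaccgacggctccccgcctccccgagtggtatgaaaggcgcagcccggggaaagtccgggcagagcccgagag
Il7r, chr15:9529827-9530126, minus strand: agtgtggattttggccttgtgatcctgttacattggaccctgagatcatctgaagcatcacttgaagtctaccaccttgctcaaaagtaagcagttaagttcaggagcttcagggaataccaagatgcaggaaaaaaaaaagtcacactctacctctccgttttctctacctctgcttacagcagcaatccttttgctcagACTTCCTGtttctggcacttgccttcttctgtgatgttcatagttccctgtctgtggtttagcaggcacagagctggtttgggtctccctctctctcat
Neurl3, chr1:36273376-36273675, minus strand: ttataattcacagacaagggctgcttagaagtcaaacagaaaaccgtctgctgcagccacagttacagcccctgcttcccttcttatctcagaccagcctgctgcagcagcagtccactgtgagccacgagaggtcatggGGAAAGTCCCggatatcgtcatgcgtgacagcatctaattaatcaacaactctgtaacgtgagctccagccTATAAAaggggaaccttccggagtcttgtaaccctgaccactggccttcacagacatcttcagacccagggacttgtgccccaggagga

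In Btg2 the capitals are the cAMP response element TGACGTCA at -166 to -159 from the start, a motif held by 1.79% of 32851 promoters. In Il7r they are ACTTCCTG at -49 to -42, the other strand of the ETS motif CAGGAAGT, held by 3.33%. In Neurl3 they are a kappaB motif at -110 to -101, read on the other strand (0.155%), and the TATA motif TATAAA at -39 to -34 (13.6%). The remaining motifs had no match in these windows or in those of Gprasp2 and Kcnrg: AP-1 (TGANTCA, 7.81% of promoters), the PU.1-type ETS motif GAGGAAGT (3.2%), the MEF2 motif (3.69%) and the IRF motif (3.44%). A match is a run of letters and not a shown binding site. Base composition differed widely, with 72% G and C in the Btg2 window, 51.7% in Neurl3 and 45.7% in Il7r against a median of 52.7% over all promoters.

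Among the surface proteins, Il7r read 4.99, 4.80 and 5.40 on the 3 cortex arrays at P7 and 8.44, 9.17 and 9.12 on the adult ones. In corpus callosum it read 3.97, 4.71 and 5.40 at P7 and 8.61, 8.59 and 8.88 in the adult. At P3 the levels were 4.70, 5.20 and 5.07 in cortex and 5.27, 4.94 and 4.25 in corpus callosum. All 12 P3 and P7 arrays thus lay below the array medians, and all 6 adult arrays lay far above them. The difference between adult and P7 means was 3.84 in cortex (14.4-fold) and 4.0 in corpus callosum (16-fold), the 2nd and the highest of all genes. As the early levels are below the array medians, where signal was not told apart from background, the size of these folds is uncertain.

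Upk1b ran almost in parallel. Its P7 levels were 5.55, 5.42 and 5.72 in cortex and 4.68, 5.62 and 5.85 in corpus callosum. The adult arrays read 9.90, 9.62 and 10.13 in cortex and 8.82, 9.52 and 9.56 in corpus callosum, so that every adult cortex array was above every adult callosum array. P3 levels were 5.47, 5.44 and 5.50 in cortex and 5.54, 5.18 and 4.89 in corpus callosum, overlapping those at P7. Adult exceeded P7 by 4.32 in cortex (20.0-fold), the highest value of all genes there, and by 3.92 in corpus callosum (15.1-fold), the 2nd highest.

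Csmd3 showed the least scatter among adult arrays of these 3 surface proteins, taking both regions together. It read 8.20, 8.16 and 8.47 in adult cortex and 8.11, 8.30 and 8.44 in adult corpus callosum. At P7 it read 5.12, 4.45 and 4.50 in cortex and 4.82, 4.57 and 4.87 in corpus callosum. At P3 the cortex arrays read 5.29, 5.20 and 5.33 and the callosum arrays 5.08, 4.94 and 4.86, without overlap. The adult level was 3.59 above P7 in cortex (12-fold) and 3.53 in corpus callosum (11.6-fold), ranking 3rd in both regions. Leaving out cortex P7 replicate 1, the highest of its group, gave 3.81 in cortex. Csmd3 overlaps 4 predicted genes in RefSeq, and the array annotation does not separate transcripts that share their position.

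Rgs1, which acts on G proteins, read 5.67, 6.01 and 6.03 in cortex and 6.13, 5.61 and 6.12 in corpus callosum at P7. In the adult it read 9.0, 8.53 and 8.54 in cortex and 8.76, 8.80 and 8.90 in corpus callosum. Its P3 levels were 6.25, 5.78 and 5.63 in cortex but 5.13, 6.49 and 6.91 in corpus callosum, the widest scatter of this gene in any group. Without callosum P3 replicate 1, the lowest of these, the difference of P7 from P3 in corpus callosum moved from -0.23 to -0.75. Adult exceeded P7 by 2.79 in cortex (6.90-fold) and 2.87 in corpus callosum (7.30-fold).

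Gprasp2, the receptor-sorting protein, was the only member with more than 1 probe set. On the brighter it ranged from 8.22 to 8.41 in cortex and from 7.32 to 8.67 in corpus callosum at P7, and from 10.02 to 10.67 and from 9.29 to 10.58 in the adult. These are differences of 2.02 in cortex (4.05-fold) and 1.89 in corpus callosum (3.72-fold). Its P3 callosum arrays read 9.31, 9.29 and 7.22, so that replicate 1 lay just above the lowest adult callosum array, and without replicate 3 the P7 minus P3 difference moved from -0.50 to -1.19. The dimmer probe set had group means of 5.81 ± 0.21 (SD, n = 3 here and below) in cortex and 5.72 ± 0.23 in corpus callosum at P7 and of 7.22 ± 0.11 and 6.96 ± 0.47 in the adult, the same direction on both probe sets. Gprasp2 overlaps Bhlhb9 in RefSeq, with the same limit.

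Btg2, the deadenylase recruiter, was above the array medians at every age. At P7 it read 7.72, 8.84 and 8.65 in cortex and 7.50, 8.47 and 8.71 in corpus callosum, with replicate 1 the lowest in both. In the adult it read 10.85, 10.42 and 10.78 in cortex and 10.85, 10.83 and 10.87 in corpus callosum. The adult callosum arrays lay within 0.04 of each other, and the SD there was 0.02. At P3 it read 7.72, 7.71 and 8.09 in cortex and 7.68, 7.77 and 7.70 in corpus callosum. Adult exceeded P7 by 2.28 in cortex (4.85-fold) and by 2.62 in corpus callosum (6.16-fold), and P7 exceeded P3 by 0.56 and 0.51, less than the P7 SD of 0.60 and 0.64.

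Neurl3, the Neuralized ligase, had its lowest group means at P7 and not at P3 in both regions, as had Csmd3 and Gprasp2. The P7 arrays read 7.34, 6.87 and 6.95 in cortex and 6.97, 6.99 and 6.87 in corpus callosum. The P3 arrays read 7.21, 7.72 and 7.98 in cortex and 7.57, 8.75 and 8.64 in corpus callosum, where every P3 array was above every P7 array, as held for 9.36% of all genes. The P7 arrays took part in the choice of the members, and age and array set coincide between P3 and P7. Nothing is therefore read from this separation. The adult arrays read 8.82, 8.85 and 8.78 in cortex and 9.38, 9.0 and 9.40 in corpus callosum. The P7 mean was below the P3 mean by 0.58 in cortex and by 1.38 in corpus callosum (differences of -0.58 and -1.38), and the latter was -1.75 without callosum P3 replicate 1. Adult exceeded P7 by 1.76 in cortex (3.39-fold) and 2.32 in corpus callosum (4.99-fold), but exceeded P3 by only 1.18 and 0.94.

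Kcnrg, the Kv1 assembly inhibitor, differed most between regions in its course. In cortex it read 5.92, 4.72 and 5.39 at P3, 6.77, 6.56 and 6.39 at P7 and 7.09, 8.35 and 8.44 in the adult. In corpus callosum it read 6.10, 5.49 and 6.12 at P3, 5.35, 6.12 and 6.06 at P7 and 8.16, 8.44 and 8.58 in the adult. The cortex mean was thus higher at each later age, with P7 exceeding P3 by 1.23 and adult exceeding P7 by 1.39 (2.62-fold). Age and array set coincide in the first of these steps, and the P3 readings of 4.72 and 5.39 were below the array medians. In the other step the lowest adult array was 0.32 above the highest P7 array. In corpus callosum P3 and P7 overlapped (difference -0.06) and adult exceeded P7 by 2.55 (5.86-fold). Kcnrg overlaps Trim13 and Dleu2 in the RefSeq table, with the same limit.

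**Figure D1:**
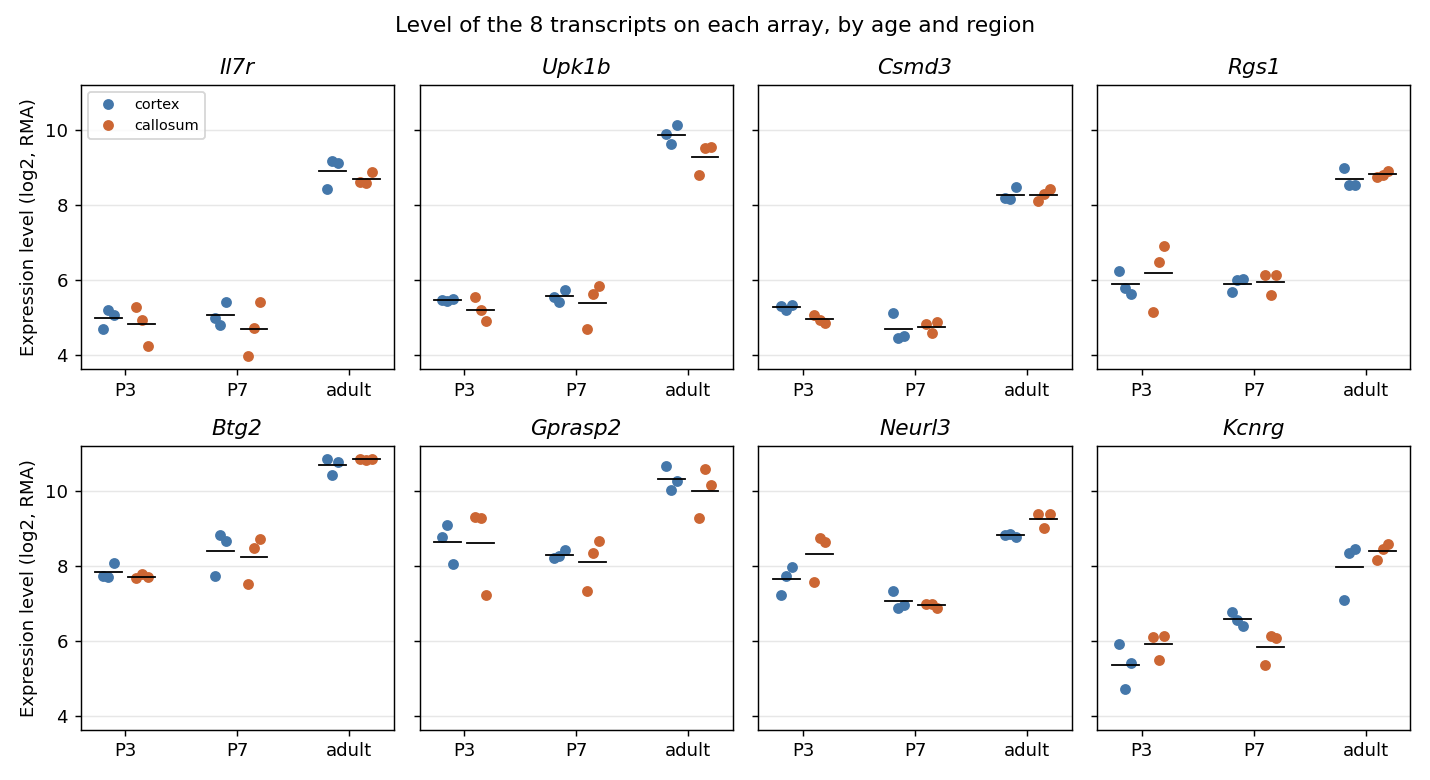
Log2 level of each of the 8 transcripts on every array, by age on the horizontal axis, with cortex and corpus callosum in separate colours; points are single arrays and short black bars are means of 3 arrays. Both adult groups have the highest means for every transcript, and Neurl3 and Gprasp2 come closest to their adult levels at P3.

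For all 8 transcripts every adult array was above every P7 array, in cortex, where 13.7% of all genes did the same, and in corpus callosum, where 17.7% did. The transcripts were chosen for this contrast, so nothing is read from that count. The median difference of the 8 was 2.53 in cortex and 2.74 in corpus callosum, and that of all genes 0.03 and 0.05. Adult arrays were also completely above P3 arrays for all 8 in cortex (16% of all genes) and for 7 of 8 in corpus callosum (16.5%), Gprasp2 being the exception. Kcnrg marked the lower end of the choice in cortex, at rank 54 of all genes with 1.39, and Gprasp2 in corpus callosum, at rank 22 with 1.89. Above these lowest members lay 46 other genes in cortex and 14 in corpus callosum. Examples, named after their values were seen, were the heat shock gene Hspa1a (3.32 in cortex and 2.80 in corpus callosum), Ptprm (1.92 in cortex) and Selplg, the ligand of P-selectin (2.28 in corpus callosum).

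In the order of group means, the adult groups came first and 2nd for every transcript, and the lower of them did not overlap the group that came next. The members were chosen by adult against P7 levels, so nothing is read from this order. For Gprasp2 the lowest adult callosum array (9.29) was below the highest P3 callosum array (9.31), a group further down. Adult cortex and adult corpus callosum overlapped for 6 transcripts and not for Upk1b or Neurl3. Of all genes, 6.07% had every adult cortex array above every adult callosum array, as Upk1b had, and 6.73% the reverse, as Neurl3 had. Among the 4 younger groups nearly all neighbours in the order overlapped. The exceptions were Csmd3, whose P3 cortex arrays were all above P3 corpus callosum, and Kcnrg, whose P7 cortex arrays were all above P3 corpus callosum.

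The comparison of corpus callosum with cortex asks whether microglia of white and grey matter differ in these transcripts. None of the 8 was called at P3, P7 or in the adult by limma at an adjusted p under 0.05, where 0.505%, 0.451% and 0.00451% of all genes were called. At an unadjusted p under 0.05 the count was 1 of 8 at each age: Neurl3 at P3, Kcnrg at P7 and Upk1b in the adult. The P7 and adult arrays took part in the choice of the members, so only the P3 comparison is free of it. All differences lay between -0.73 and 0.68.

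Upk1b was lower in adult corpus callosum than in adult cortex by a difference of -0.59 ± 0.25 (SE, n = 3 per group, adjusted p 0.554, 95% interval -1.12 to -0.06). Its arrays did not overlap, as held for 6.07% of all genes in this direction. At P7 its difference was -0.18 (interval -0.71 to 0.35) with overlapping arrays. The difference in the adult therefore missed the threshold over all genes, and the interval leaves room for more than a doubling in favour of cortex.

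Neurl3 was higher in corpus callosum at P3 by 0.68 ± 0.24 (adjusted p 0.23, interval 0.17 to 1.19), though callosum replicate 1 lay within the cortex range. Without that array the difference was 1.05 with an adjusted p of 0.0243, and over all alternatives the adjusted p ran from 0.0243 to 0.532. In the adult Neurl3 was again higher in corpus callosum, by 0.44 ± 0.24 (adjusted p 0.645, interval -0.07 to 0.95), with arrays that did not overlap, as for 6.73% of all genes. At P7 the regions differed by -0.11 (interval -0.62 to 0.40).

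Kcnrg was lower in corpus callosum at P7 by a difference of -0.73 ± 0.33 (adjusted p 0.673, interval -1.41 to -0.04), without overlap of the arrays, as for 7.76% of all genes. The difference had the other sign at P3 (0.56, interval -0.12 to 1.25) and in the adult (0.44, interval -0.25 to 1.12). Csmd3 at P3 was lower in corpus callosum by a difference of -0.32 ± 0.16 (adjusted p 0.418), also without overlap (6.67% of all genes), and differed by 0.07 at P7 and 0.01 in the adult.

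For the other transcripts the regions lay close together. Il7r differed by -0.17 at P3, -0.37 at P7 and -0.21 in the adult, where the interval was -0.85 to 0.43. Rgs1 differed by 0.13 in the adult (interval -0.52 to 0.78), Btg2 by 0.17 (-0.40 to 0.73) and Gprasp2 by -0.31 (-1.28 to 0.66). These intervals leave room for differences of up to about a doubling, and for Gprasp2 more, so equality of the regions was not shown.

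**Figure D2:**
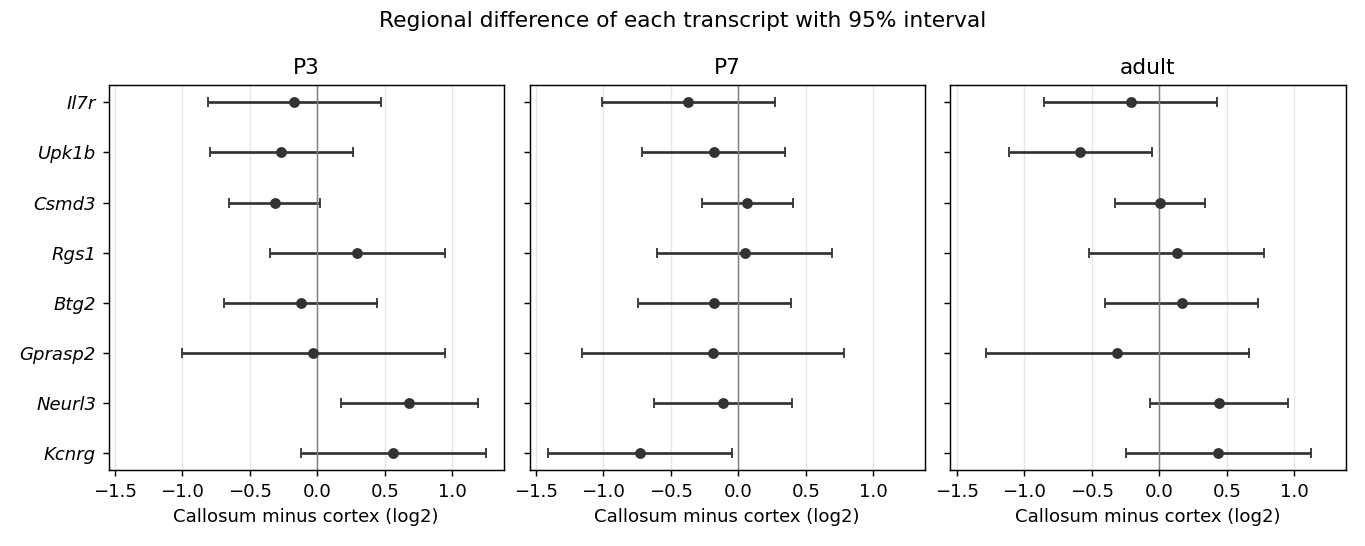
Corpus callosum minus cortex (log2 units) for each of the 8 transcripts at P3, P7 and in the adult (one panel per age), as points with 95% intervals from the limma fit; the vertical line at 0 is no difference. Most intervals cross 0, and those of Neurl3 at P3, Kcnrg at P7 and Upk1b in the adult do not, before adjustment over all genes.

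The regional difference in the rise from P7 to adult is made of the same values that chose the members, so it is given as a description, with no test; of all genes, 0.203% were called in this contrast, from which nothing is read for the members. The rise of Kcnrg was larger in corpus callosum by 1.16 and that of Neurl3 by 0.56, while that of Upk1b differed by -0.40. For the other members the difference lay between -0.12 and 0.34. The change of the regional difference from P3 to P7 called none of the 8 and 0% of all genes, with 2 of 8 at an unadjusted p under 0.05. These were Kcnrg (-1.29 ± 0.46, adjusted p 0.868) and Neurl3 (-0.79 ± 0.34, adjusted p 0.868). The P7 arrays in this contrast took part in the choice of the members, so no support is drawn from these values.

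The relatives and partners of the 8 transcripts were compared between adult and P7 with a test, since the rule did not choose them, though the lists were drawn up with earlier results known. Over 8 lists with 122 measured genes, 9 were higher and 8 lower in adult cortex and 15 were higher and 13 lower in adult corpus callosum. Of all genes, 4.05% were higher and 6.15% lower in cortex and 6.56% higher and 10.7% lower in corpus callosum. The list medians were 0.04 and 0.09, near the medians of all genes. The largest called rise was that of Tslp (1.15 and 1.22), and the largest called fall was that of Rnaseh2b (-1.28 and -1.51).

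In the interleukin 7 receptor pathway, 2 of 16 genes rose in cortex and 3 in corpus callosum, and none fell, at medians of 0.20 and 0.26. Tslp, the ligand that uses Il7r together with Crlf2, rose by 1.15 ± 0.22 in cortex (adjusted p 0.00185) and 1.22 ± 0.22 in corpus callosum (adjusted p 0.00068), from P7 means of 5.11 and 5.0, below the array medians. Mcl1, an antiapoptotic protein, rose by 0.56 and 0.66 (adjusted p 0.00331 and 0.000561). Stat5b, a transcription factor downstream of the receptor, was called in corpus callosum (0.46 ± 0.14, adjusted p 0.0306) but lost the call without any of the callosum P7 arrays or without adult callosum replicate 1 or 3 (adjusted p up to 0.118). Il7 itself was at 4.58 at P7 and 4.79 in adult cortex (adjusted p 0.499), below the medians on average in every group, and Crlf2 differed by 0.01 and 0.06. Socs3, a feedback inhibitor of cytokine receptors, had the largest difference, 1.78 ± 0.65 and 1.89 ± 0.65, and missed the threshold (adjusted p 0.102 and 0.0513). The common gamma chain and Jak3 were not analysed here.

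Among 18 other RGS proteins, 2 were higher and 1 lower in adult microglia of each region. Rgs2, another inhibitor of G protein signalling, rose by 0.96 ± 0.14 in cortex (adjusted p 7.6e-05) and 1.05 ± 0.14 in corpus callosum (adjusted p 2.01e-05), alongside Rgs1. Rgs12 fell by 0.52 in corpus callosum (adjusted p 0.00852). Rgs10 (0.47 in cortex) lost its call without cortex P7 or adult replicate 2 or 3 (adjusted p up to 0.0818), and Rgs13 (0.57 in corpus callosum) without any callosum P7 array or adult replicate 1 or 3 (up to 0.206). Rgs12 in cortex (-0.45) lost its call without P7 replicate 2 or 3 or adult replicate 1 or 3 (up to 0.137). Of 14 G proteins and chemoattractant receptors, 2 were higher and 1 lower in cortex and 3 were higher and 3 lower in corpus callosum. The receptors S1pr1 and Cxcr4 fell in corpus callosum (-1.10 and -0.94, adjusted p 5.85e-05 and 0.000389). The 3 called higher there, P2ry12, Cx3cr1 and Ccr2, were all lost without callosum P7 replicate 1, and 1 of the 3 remained without adult callosum replicate 3. In cortex 1 remained higher without P7 replicate 1 or 3 or adult replicate 2 or 3, and the lower call was lost without any of 5 of the 6 arrays, adult replicate 2 being the sixth.

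Of 14 genes for BTG and TOB proteins and the CCR4-NOT complex, 1 was higher and 3 lower in cortex, and 2 were higher and 3 lower in corpus callosum. Btg1, the closest relative of Btg2, rose by 1.05 ± 0.17 (adjusted p 0.000323) and 1.03 ± 0.17 (adjusted p 0.000253). The complex subunits Cnot6, a deadenylase, and Cnot9 fell in cortex (-1.11 and -0.85) and in corpus callosum (-0.86 and -1.12) (adjusted p from 6.98e-05 to 0.00638). Tob1 differed by less than 0.02 in both regions. Among 12 other p53 targets none was higher in cortex by limma (1 at an unadjusted p under 0.05, and 1 called without adult cortex replicate 1), 2 were higher in corpus callosum (1 without any one of the 6 callosum P7 and adult arrays), and 2 were lower in each. The lower ones were the cell cycle inhibitor Cdkn1a (-2.32 and -2.15, adjusted p 4.02e-08 and 1.15e-07) and Ccng1 (-0.73 and -0.92). Adult levels of Btg2 were thus above those at P7 and adult levels of Cdkn1a below them.

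For Upk1b, 1 of 18 uroplakins and tetraspanins was higher and 1 lower in cortex, and 3 were higher and 2 lower in corpus callosum. Both cortex calls were lost without P7 replicate 2 or 3, the higher also without adult replicate 3 and the lower without P7 replicate 1 or adult replicate 1 or 2. The tetraspanin Cd82 rose by 0.48 in corpus callosum (adjusted p 0.00852) and Tspan14 by 0.63 (adjusted p 0.00432), while Cd9 and Cd63 fell there (-0.92 and -0.77). The other uroplakins Upk1a (0.05 and -0.03), Upk2 (0.05 and 0.37) and Upk3a (0.15 and 0.06) were not called. For Csmd3, 1 of 15 CUB and sushi proteins was higher and 1 lower in each region. These were Susd3 (0.53 and 0.90, not called in cortex without adult cortex replicate 3) and Susd1 (-0.73 and -0.82). The nearest relatives Csmd1 (-0.02 and 0.00) and Csmd2 (-0.03 and 0.02) stayed within 0.03 of no difference.

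None of 7 other GPRASP and ARMCX genes was called in cortex by limma, nor had one an unadjusted p under 0.05, and 1 was lower in corpus callosum (Armcx3, -0.61 ± 0.12, adjusted p 0.000933). Bhlhb9, which overlaps Gprasp2, differed by 0.01 and -0.17. For Neurl3, 2 of 18 Neuralized, Mind bomb and Notch genes were higher and 1 lower in cortex, and 2 were higher and 2 lower in corpus callosum. Mind bomb ligases split: in corpus callosum Mib2 rose by 0.64 and Mib1 fell by 0.53 (adjusted p 0.00164 and 0.00268), with the same signs in cortex (0.54 and -0.44). The cortex calls of both were lost without P7 replicate 2 or 3, that of Mib2 also without adult replicate 3 and that of Mib1 without adult replicate 1 or 2 (adjusted p up to 0.0732 and 0.0814). Rbpj, the DNA-binding partner of Notch, fell by 1.31 in corpus callosum (adjusted p 0.000441). The relatives Neurl1a (-0.05 and 0.10), Neurl1b (0.02 and 0.08), Neurl2 (0.16 and -0.23) and Neurl4 (0.13 and 0.11) were not called.

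Around Kcnrg, none of 16 Kv1 channel and neighbouring genes was higher in cortex by limma (2 at an unadjusted p under 0.05) and 1 was lower, with 2 higher and 3 lower in corpus callosum. Of the genes that overlap it, Dleu2 rose by 0.86 ± 0.15 in corpus callosum (adjusted p 0.000319) and differed by 0.09 in cortex (adjusted p 0.832), while Trim13 differed by 0.14 and 0.22 (adjusted p 0.716 and 0.639). Kcnrg also had its larger rise in corpus callosum, and the part of Dleu2 in that value was not tested. Nearby Rnaseh2b fell in both regions (-1.28 and -1.51), and Kcna3, a Kv1 channel of immune cells, differed by -0.15 and 0.42 without a call.

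**Figure D3:**
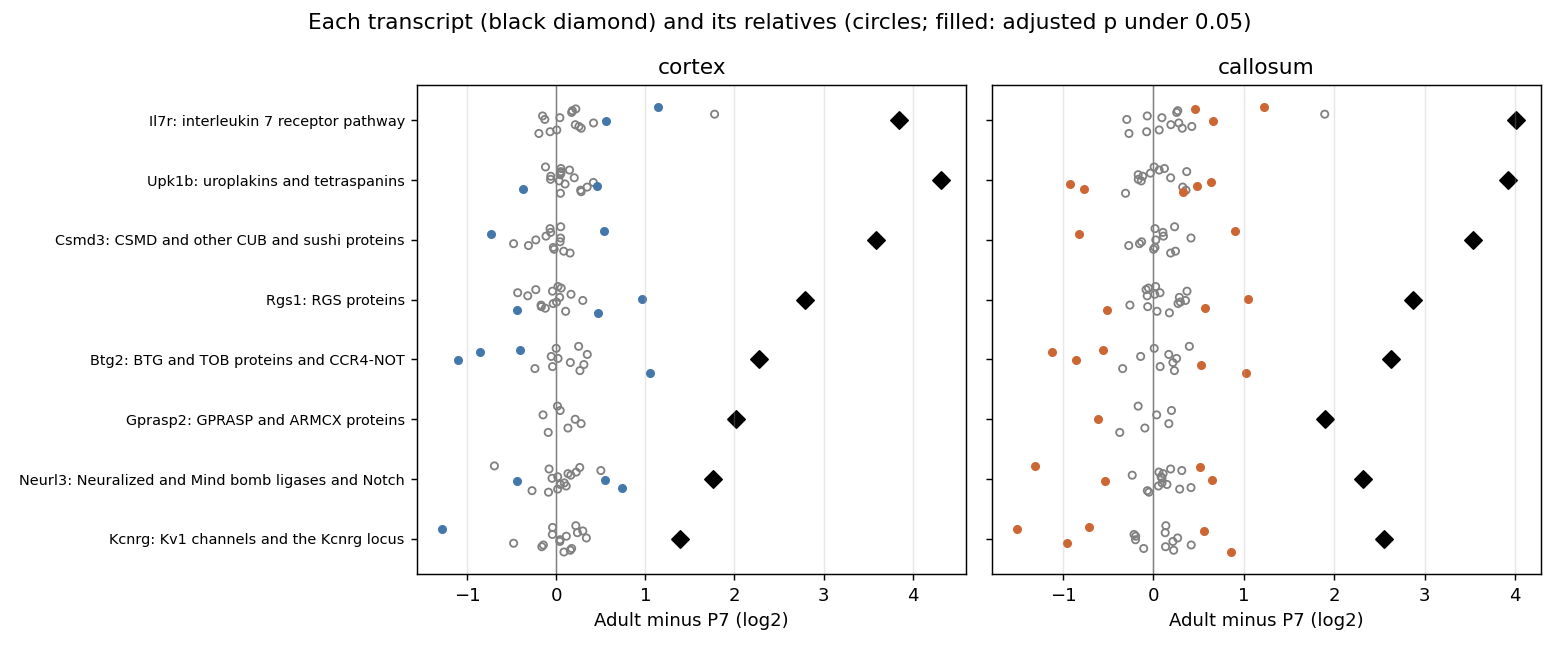
Adult minus P7 difference (log2 units) of each listed relative or partner, by list, with a panel for each region; each circle is a gene, filled where its adjusted p was under 0.05, and the black diamond is the member that the list belongs to, not tested. Most relatives lie near 0, and the largest called rise is that of Tslp at 1.15 and 1.22. The members were chosen for their rise, so nothing is read from their place above the relatives.

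Early response genes, which are transcribed within minutes of many stimuli, were in part higher in the adult as well. Of 23 measured, 11 rose and none fell in adult cortex, and 12 rose and 1 fell in adult corpus callosum. Their medians were 0.53 and 0.60. The rest were not called, among them Dusp2 (0.09 and 0.04) and Nr4a1 (0.17 and 0.18). Of all genes, 4.05% were higher and 6.15% lower in cortex, and 6.56% higher and 10.7% lower in corpus callosum. Fos rose by 1.59 and 1.74, Jun by 1.49 and 1.72, and the messenger-destabilising Zfp36 by 1.36 and 1.48. Egr1 differed by 1.20 and 1.42, and lost its call in cortex without P7 or adult replicate 1 or 3 (adjusted p up to 0.197) and in corpus callosum without P7 replicate 1 (0.0599). Over all settings tried it was lost in 8 of 14 in cortex. Atf3 was called in cortex (0.98), though not without P7 replicate 1 or 2 or adult replicate 1 (adjusted p up to 0.119), and differed by -0.15 in corpus callosum. Without callosum P7 replicate 1 the count of higher genes in corpus callosum fell to 7.

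The mean over the early response genes separated the adult arrays from the P3 and P7 arrays, which overlapped each other. It was 6.89, 7.14 and 7.14 in P7 cortex and 6.99, 7.21 and 7.22 in P7 corpus callosum, against 8.07, 7.55 and 7.66 in adult cortex and 7.72, 7.77 and 7.75 in adult corpus callosum. At P3 it lay between 6.81 and 7.22. On both P7 replicate 1 arrays this mean was the lowest of its group, as were the levels of Btg2 and Gprasp2. On callosum P7 replicate 1 the levels of Il7r, Upk1b and Kcnrg were also the lowest of the group, while that of Rgs1 (6.13) was the highest. On cortex P7 replicate 1 Rgs1 (5.67) was the lowest, and Csmd3, Neurl3 and Kcnrg were the highest. Adult cortex replicate 1 had the highest mean of all arrays. Btg2 (10.85), Rgs1 (9.0) and Gprasp2 (10.67) were at their cortex maximum there, whereas Il7r (8.44) and Kcnrg (7.09) were at their adult minimum. The part of early response genes in the rise of the members was not tested.

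**Figure D4:**
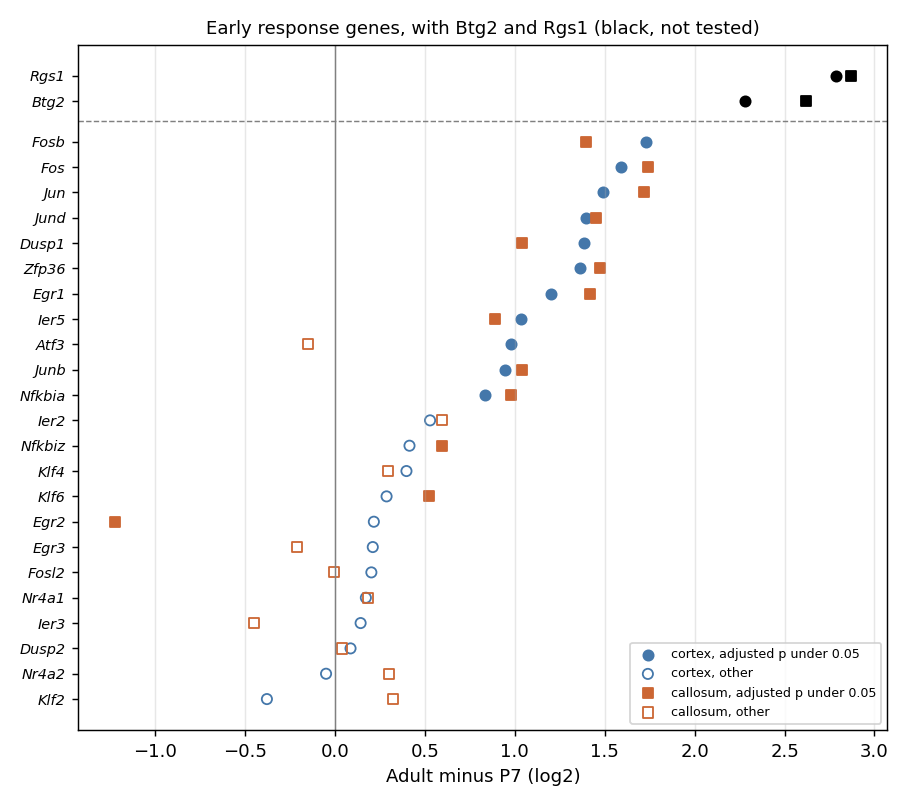
Adult minus P7 difference (log2 units, horizontal axis) of each of the 23 early response genes in cortex and in corpus callosum, filled where the adjusted p was under 0.05, with Btg2 and Rgs1 in black above the dashed line, not tested. Fos, Fosb, Jun and Zfp36 lie above 1.3 in both regions, and Egr2 lies at -1.22 in corpus callosum.

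Other markers also differed between the ages. Of 13 microglial markers 4 rose in cortex and 9 in corpus callosum, with none lower, and Tmem119 rose by 1.03 and 1.56. Of 9 markers of border macrophages none rose, 4 fell in cortex and 5 in corpus callosum, led by the mannose receptor Mrc1 (-4.23 and -4.44, adjusted p 3.68e-09 and 3.07e-09). Their mean lay between 6.24 and 6.65 on P7 arrays and between 5.19 and 5.37 on adult arrays. In such bulk samples, fewer cells of a type and less RNA per cell cannot be told apart, and the part of these cells in the values of the 8 transcripts was not tested. Markers of T and innate lymphoid cells gave 1 gene higher (Ltb, a call lost in 6 of 14 alternatives in cortex and 7 in corpus callosum) and 1 lower (Icos) in each region. Their mean lay between 5.20 and 5.39 on P7 arrays and between 5.15 and 5.38 on adult arrays, overlapping, and their part in the level of Il7r was not tested. The mean over B and NK cell markers stayed between 5.18 and 5.55 on all arrays. Among other cell types, Slc1a3 of astrocytes (1.79 and 0.96) and Pecam1 of endothelium (1.06 in cortex) rose. Ccr2 of monocytes rose too (0.77 and 0.44), but its callosum call was lost without any of 5 of the 6 arrays. Ndrg2 of astrocytes (-0.56 in corpus callosum), Lyz2 of monocytes (-0.82 and -1.22) and Gap43 of neurons (-1.56 in cortex) fell. The part of these cells in the 8 transcripts was not tested.

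**Figure D5:**
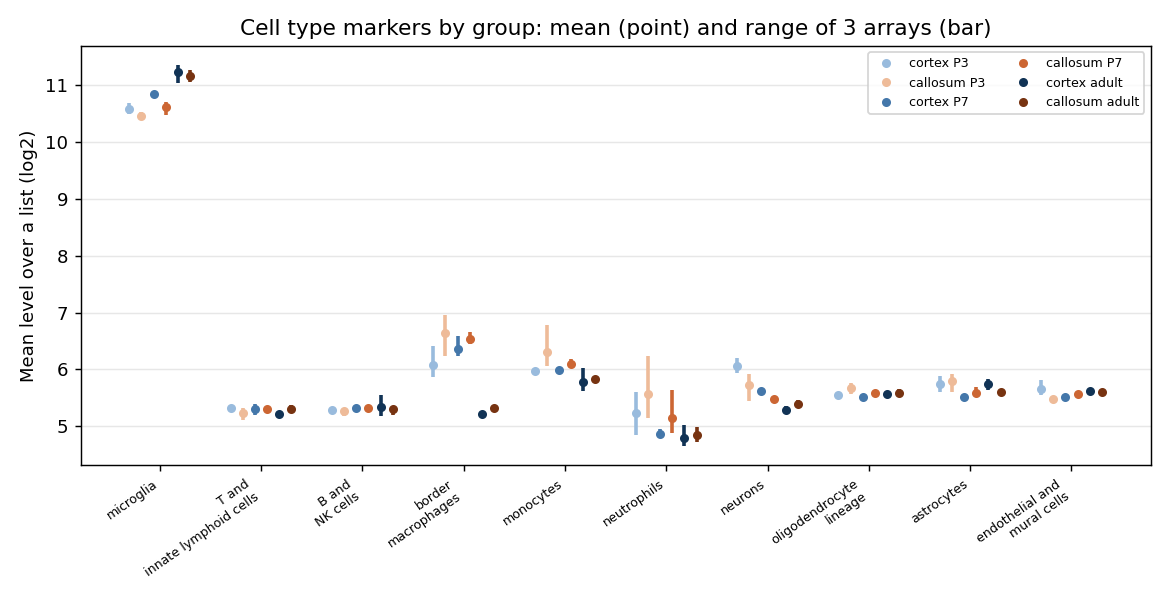
Mean level (log2 units) over the marker genes of each cell type in the 6 groups; points are means of 3 arrays and bars run from the lowest to the highest array. Microglial markers lie at 10.4 or more throughout, markers of T and innate lymphoid cells at 5.39 or less, and border macrophage markers are lower on adult arrays (5.19 to 5.37) than on P7 arrays (6.24 to 6.65).

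The genes whose levels followed each member most closely were named by Pearson's r over the 18 arrays, as a description. All 18 arrays share the step between young and adult, which weighs on every r, so the value over the 12 P3 and P7 arrays is given as well. Il7r and Upk1b were most like each other or nearly so (0.988, and 0.87 over the younger arrays), and both were followed by the receptor phosphatase Ptprm (0.983 and 0.991, and 0.71 and 0.73 over the younger arrays). Tlr3, a receptor for double-stranded RNA, came next for Il7r (0.981 and 0.61) and Mlph, which links melanosomes to motors, for Upk1b (0.981 and 0.23). Csmd3 was most like Upk1b (0.976), Klk8 (0.975) and Kmt2e (0.973), with -0.01, 0.48 and 0.16 over the younger arrays.

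Rgs1 was most like the kinase Sgk1 (0.967, and 0.61 over the younger arrays), Arhgap22 (0.960 and 0.55) and Zfp36 (0.951 and 0.39). Btg2 was most like the interleukin 10 receptor chain Il10ra (0.969 and 0.76), Hmga2-ps1 (0.969 and 0.80) and Txnip (0.967 and 0.79). Gprasp2 went with Fam118b (0.940 and 0.83), Arhgap5 (0.913 and 0.76) and the store-operated calcium entry regulator Saraf (0.897 and 0.72). Neurl3 went with Lysmd1 (0.938 and 0.84), Arrdc3 (0.930 and 0.93) and Tns1 (0.929 and 0.78), and Kcnrg with Sdccag8 (0.956 and 0.87), Arhgap45 (0.950 and 0.79) and Zfp809 (0.950 and 0.89). Of the 24 such pairs, with Il7r and Upk1b counted from both sides, 19 had an r above 0.5 over the younger arrays and 15 over the 6 adult arrays. The pairs were picked by r over all arrays, which include these, and no share over all genes was computed. Nothing is therefore read from these counts. Among adult arrays r ran from -0.49 (Csmd3 with Klk8) to 0.96 (Gprasp2 with Fam118b), and for Btg2 it was -0.13 with Il10ra, -0.19 with Hmga2-ps1 and 0.08 with Txnip. Among the members themselves the 28 pairs ranged from 0.643 to 0.988 over all arrays.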

How the data were processed

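Expression was measured on 18 Affymetrix arrays, 3 in each group of region and age. The authors deposited log-scale levels made by RMA, per the submitters' processing notes; version, settings and genome build: not given in the sources used here. Deposited values were taken as log2, an unstated base, because they ran from 0.87 to 13.8. With 3 arrays per group, precision is limited. Of 41345 probe sets, 23521 had 1 gene symbol, 1814 several and 16010 none in GEO's platform annotation. The brightest probe set per symbol over 18 arrays gave 22180 genes. A mean per group was fitted over all arrays in limma 3.58.1 (R 4.3.3; lmFit, contrasts.fit and eBayes, 12 residual degrees of freedom). Tests were two-sided, Benjamini-Hochberg adjusted over all genes and called under 0.05. The scripts were tested on simulated data.

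The members and the gene lists were chosen with earlier results of these data known. Named beside the members were the 3 genes most like each, up to 3 called genes per list and direction, and fixed relatives and markers. Alternatives were a second quantile normalization, eBayes with trend and robust, only genes above the median of means, the mean of a gene's probe sets, only the groups compared, a replicate block, array weights, both adult replicate 1 arrays left out, and each array left out. Probe sets without exactly 1 symbol were left out, since they name no single gene.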

Additional observations from a re-analysis of the deposited data

Results flagged for a closer look

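Genes of the lists were also tested for a difference between the regions in the change from P7 to adult, in the same limma fit. Of these, 5 were called, and 0.203% of all genes were. The lists were drawn up with earlier results of these data known, so nothing is read from this count. S1pr1, a receptor for sphingosine 1-phosphate, changed by 0.13 in cortex and -1.10 in corpus callosum, a difference of -1.23 (adjusted p 0.0296, lost in 11 of 20 alternatives). Cd9, a tetraspanin, changed by 0.10 and -0.92, a difference of -1.02 (adjusted p 0.0459, lost in 16 of 20). Armcx3, a mitochondrial protein related to Gprasp2, changed by 0.21 and -0.61, a difference of -0.83 (adjusted p 0.0489, lost in 16 of 20). Egr2, an early response transcription factor, changed by 0.22 and -1.22, a difference of -1.44 (adjusted p 0.0478, lost in 15 of 20). At P7, Cd9 and Egr2 were higher in corpus callosum by 0.98 and 1.19 (adjusted p 0.00135 and 0.00658), and in the adult the regions differed by -0.04 and -0.25 in these genes. Folr2, a folate receptor of border macrophages, fell in both regions (-1.10 and -2.66), a difference of -1.56 (adjusted p 0.0459, lost in 13 of 20). All 5 fell from P7 to adult in corpus callosum.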

How the results depend on the processing

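For the members, 471 of 472 recomputed regional tests stayed uncalled, the exception being Neurl3 at P3 without callosum P3 replicate 1 (1.05, adjusted p 0.0243). Of 432 recomputed differences between ages 427 moved by less than the spread between arrays and 5 by more, the latter being Csmd3 in cortex without P7 replicate 1 (adult minus P7 3.81, P7 minus P3 -0.80), Rgs1 and Neurl3 in corpus callosum without P3 replicate 1 (P7 minus P3 -0.75 and -1.75) and Gprasp2 there without P3 replicate 3 (-1.19). Counts over all genes moved more. For the regional difference in the rise to adult the count of 45 became 23 after quantile normalization, 77 with trend, 87 with only brighter genes, 24 with only the groups compared, 105 with array weights and 10 without both adult replicate 1 arrays. At P3 the regional count of 112 became 197 with trend, 273 with brighter genes, 16 with only the groups compared and 61 with weights. At P7 the count of 100 became 40 and 236 with the latter settings, and in the adult that of 1 became 2 and 3. For P7 against P3, 164 in corpus callosum became 280 with trend, 301 with brighter genes, 5 with only the groups compared and 370 with weights, and 196 in cortex became 644 with weights. For adult against P7 in cortex, 2264 became 3861 with weights. Leaving out 1 array gave 12 to 47 for the regional difference in the rise, 29 to 126 at P3, 48 to 90 at P7, 1 to 3 in the adult and 0 to 1 for the change of the regional difference from P3 to P7. It gave 13 to 506 and 72 to 198 for P7 against P3 in corpus callosum and cortex, and 2917 to 3541 and 1567 to 2117 for adult against P7. The cause of these moves was not tested, apart from the fewer genes or arrays that some settings hold. Whether replicate numbers pair the samples could not be settled, and the main fit held no pairing. Deviations of the 9 same-numbered pairs correlated at 0.016 to 0.3, all above 0, and 4 of 9 exceeded 0.1. Differently numbered pairs ran from -0.31 (adult cortex 1 with callosum 3) to 0.20 (adult cortex 2 with callosum 3). A replicate block took the count of 45 to 28 and left the others within 1.5 times. Levels below the array medians, as for Il7r and Csmd3 on all P3 and P7 arrays and Upk1b on most, limit the size of a fold.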
